A study of Mus musculus with 3 samples.

Results

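The genes described here are 32 mouse genes of cholesterol and fatty acid synthesis, chosen by a written list of symbols, out of 31053 genes counted in each of 3 droplet single-cell RNA libraries. They comprise 6 genes of the mevalonate steps, 11 of the later sterol steps, 5 regulators, 3 genes of fatty acid synthesis, 6 desaturases and elongases, and 1 sterol carrier. All 32 symbols were present once, with mouse Ensembl identifiers, and all 32 identifiers were found in the GENCODE vM21 annotation of GRCm38, on 14 chromosomes. Of the genes that recur below, Hmgcs1 (ENSMUSG00000093930) lies on chromosome 13 from 119690379 to 119708260, and Idi1 (ENSMUSG00000058258) on the same chromosome from 8885501 to 8892451. Cyp51 (ENSMUSG00000001467) lies on chromosome 5 from 4081145 to 4104746, and Insig1 (ENSMUSG00000045294) there from 28071363 to 28078662. Srebf2 (ENSMUSG00000022463) lies on chromosome 15 from 82147181 to 82205379. Scd2 (ENSMUSG00000025203) and Scd1 (ENSMUSG00000037071) lie on chromosome 19, from 44293674 to 44306864 and from 44394455 to 44407879.

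The study examined macrophages in human skin implanted in mice, and bone marrow cultures with and without the hormone form of vitamin D3. Co-Mac cells were bone marrow cells of C57/BL6 mice grown with GM-CSF for 7 days without further treatment, and VD-Mac cells were grown in the same way and given 1 μM of 1,25-dihydroxyvitamin D3 (VD3, that hormone) for 24 h. The third library, hSTSG, held cells recovered from human split-thickness skin that had lain under the skin of C57BL6/J mice for 14 days, with the grafts of 5 mice pooled into 1 library. The counts covered mouse genes alone and none of the human ones. With 1 library in each group, differences carry no test, cannot be set against a spread between animals or cultures, and cannot be told apart from differences between libraries.

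Cells build cholesterol from acetyl-CoA through mevalonate and a long chain of sterol intermediates, and build fatty acids from the same acetyl-CoA by carboxylation, chain extension, and desaturation. Transcription factors of the SREBP family turn on both sets of genes when membrane sterol is low, while INSIG proteins hold them back when sterol is plentiful. In macrophages this synthesis runs beside a large uptake of lipid from engulfed cells and lipoproteins.

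Co-Mac had 136905324 gene UMIs (unique molecular identifiers, which count RNA molecules) in 7866 barcodes, VD-Mac had 124731240 in 9794, and hSTSG had 24472168 in 2644. Filters asked for 300 or more detected genes, a gene total under 100000, and a mitochondrial share under 10%, which left 7257 cells of Co-Mac (92.3%), 8825 of VD-Mac (90.1%), and 2144 of hSTSG (81.1%). Median UMIs per kept cell were 15804 in Co-Mac, 12089 in VD-Mac, and 6637.5 in hSTSG. Of the kept barcodes, 15 were shared between Co-Mac and VD-Mac, 3 between Co-Mac and hSTSG, and 6 between VD-Mac and hSTSG, at most 0.28% of a library. Levels are UMIs of a gene scaled to a total of 1000000 (CPM) over the summed cells of a class, with an exact Poisson 95% interval in brackets. Ratios of levels are log2, with an exact conditional binomial 95% interval, and both kinds of interval cover counting error only. A gene is called higher or lower when its levels differed at least 1.5-fold and the higher level was at least 10 CPM.

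The cultures were clustered together and the clusters named from marker lists. Macrophage-like cells, which held UMIs of all 9 macrophage markers of the list, Adgre1, Cd68, and C1qb among them, came to 1034 cells of Co-Mac and 1124 of VD-Mac. They split almost fully by library, with cluster 7 holding 1033 of the Co-Mac cells and cluster 6 holding 1121 of the VD-Mac cells. Although the libraries are labelled as macrophages, mature dendritic cell (DC)-like cells were the larger class, with cluster 1 at 36.1% of Co-Mac and cluster 0 at 37.3% of VD-Mac. Neutrophil-like cells in cluster 2 made up 12.2% of Co-Mac and 11.6% of VD-Mac. Clusters kept out of the macrophage-like class were the cycling clusters 3 (21.8% of Co-Mac, named monocyte-like) and 5 (12.1% of VD-Mac, unnamed), and the unnamed clusters 9 (4.17% of VD-Mac) and 11 (3.25% of Co-Mac), whose cells had the highest median UMIs of the cultures. Low-depth unnamed clusters 4 (16.3% of VD-Mac, median 1828 UMIs there) and 8 (6.48% of Co-Mac, median 3134.5) and the small unnamed clusters 10 and 13 entered only the sums over all kept cells. In the graft, macrophage-like cells were the 335 cells of cluster 2, led by Gpnmb and Mmp12, and the 156 cells of cluster 4, led by Cd163 and Lyve1.

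The first comparison asked how the genes stood in macrophage-like cells with and without VD3. Most members of the cholesterol route with at least 10 CPM were lower in VD-Mac, from Hmgcs1 at the making of HMG-CoA to Sc5d among the late sterol reactions. Summed over the 32 members, the level was 1157 CPM in Co-Mac (interval 1143 to 1171) and 657 CPM in VD-Mac (645 to 668). Of the 27 members with at least 10 CPM, 19 were called lower and 1 was called higher, while of 7545 genes with that level 14.1% were called lower and 11.7% higher. The share called lower thus stood well above that of all genes, and the share called higher did not. The median log2 ratio was -0.91 over those 27 members and -0.90 over all 32, beside -0.05 for the 7545 genes. With cells limited to 5% mitochondrial UMIs no VD-Mac cluster took the macrophage name, so that setting gave no value here. The limit kept 3125 of the 7257 Co-Mac cells and 3619 of the 8825 VD-Mac cells. The 5 members under 10 CPM in both cultures were Lss, Tm7sf2, Dhcr7, Elovl6, and Fads2.

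In the mevalonate steps 5 of 6 members were called lower. Hmgcs1 encodes the synthase that makes HMG-CoA and stood at 73.0 CPM (69.5 to 76.6) in Co-Mac, 19.4 CPM (17.4 to 21.5) in VD-Mac and 68.2 CPM (62.9 to 73.9) in the graft macrophage-like cells. The VD-Mac level was 3.76-fold below that of Co-Mac, a log2 ratio of -1.91 (interval -2.08 to -1.75), and the intervals of the cultures did not overlap. The decarboxylase gene Mvd was at 62.2 CPM (59.0 to 65.5) in Co-Mac, 25.5 CPM (23.3 to 27.9) in VD-Mac and 12.4 CPM (10.2 to 15.0) in the graft. Its log2 ratio between the cultures was -1.29 (interval -1.44 to -1.13), with Co-Mac the highest of the 3 libraries and the graft the lowest. Idi1 encodes the isomerase that readies isoprene units for joining, and was at 53.9 CPM (51.0 to 57.0) in Co-Mac, 20.1 CPM (18.1 to 22.2) in VD-Mac and 15.9 CPM (13.3 to 18.7) in the graft. The log2 ratio of VD-Mac over Co-Mac was -1.43 (interval -1.60 to -1.26). Fdps, which encodes the farnesyl diphosphate synthase, was at 33.4 CPM in Co-Mac and 12.1 CPM in VD-Mac. Pmvk, a kinase gene, was called lower by the smallest margin of the 5, with a log2 ratio of -0.79. The preceding kinase gene, Mvk, was at 19.1 and 13.3 CPM and was not called.

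Among the sterol steps, 7 of the 8 members with at least 10 CPM were called lower. Cyp51, which encodes the demethylase of lanosterol, had the lowest ratio of the members called, and was at 54.6 CPM (51.6 to 57.7) in Co-Mac, 12.7 CPM (11.2 to 14.5) in VD-Mac and 19.7 CPM (16.9 to 22.9) in the graft. Its level was 4.29-fold lower in VD-Mac than in Co-Mac, a log2 ratio of -2.10 (interval -2.31 to -1.90). Msmo1, which encodes the methylsterol oxidase that acts after it, was at 64.4 CPM (61.2 to 67.8) in Co-Mac, 28.4 CPM (26.0 to 30.9) in VD-Mac and 32.5 CPM (28.8 to 36.5) in the graft. The cultures differed by a log2 ratio of -1.18 (interval -1.33 to -1.04), and VD-Mac and graft intervals overlapped. Hsd17b7, the ketoreductase gene of the demethylation steps, was at 15.0 CPM in Co-Mac and 4.24 CPM in VD-Mac. The remaining members called lower were Fdft1 (squalene synthase), Sqle (squalene epoxidase), Nsdhl (a sterol dehydrogenase), and Sc5d (a sterol desaturase), with log2 ratios of -1.72, -0.98, -0.63, and -0.91. Ebp, the sterol isomerase gene, stood apart at 89.3 CPM (85.5 to 93.3) in Co-Mac and 104 CPM (99.4 to 109) in VD-Mac, a log2 ratio of 0.22 (interval 0.13 to 0.31) that was above 0 but not called. Lss (lanosterol synthase), Tm7sf2 (a sterol reductase), and Dhcr7 (the reductase of the last step) stayed under 10 CPM, with Dhcr7 at 9.27 CPM in Co-Mac and 5.53 CPM in VD-Mac.

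The regulators did not move as 1 group. Srebf2, which encodes the SREBP factor tied mainly to cholesterol genes, was at 70.5 CPM (67.1 to 74.0) in Co-Mac, 27.7 CPM (25.3 to 30.2) in VD-Mac and 30.0 CPM (26.5 to 33.9) in the graft. Its log2 ratio of VD-Mac over Co-Mac was -1.35 (interval -1.50 to -1.21). Srebf1, the related gene tied mainly to fatty acid genes, was at 15.0 CPM in Co-Mac, 15.6 CPM in VD-Mac, and 15.3 CPM in the graft, with overlapping intervals. Insig1 was called lower in VD-Mac at 12.7 CPM against 21.5 CPM, while its relative Insig2 was at 22.3 and 21.4 CPM. Scap, which encodes the escort protein of the SREBPs, was at 14.5 CPM in VD-Mac and 17.2 CPM in Co-Mac and was not called.

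Of the fatty acid synthesis genes, 2 of 3 were called lower. Acly, which encodes the lyase that supplies acetyl-CoA to both routes, was at 102 CPM (98.4 to 107) in Co-Mac, 55.2 CPM (51.8 to 58.6) in VD-Mac and 101 CPM (94.8 to 108) in the graft. The log2 ratio of VD-Mac over Co-Mac was -0.89, and the graft level lay within the Co-Mac interval. Fasn, the fatty acid synthase gene, was at 40.8 CPM in Co-Mac and 19.5 CPM in VD-Mac, a log2 ratio of -1.07. Acaca, the acetyl-CoA carboxylase gene, was at 16.4 and 12.9 CPM and was not called.

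The desaturases and elongases held the member that was called higher. Scd1, a stearoyl-CoA desaturase gene, was at 5.97 CPM (5.01 to 7.05) in Co-Mac and 22.1 CPM (20.0 to 24.3) in VD-Mac, 3.70-fold higher with VD3 (log2 ratio 1.89, interval 1.61 to 2.18). Scd2, a second gene for the same reaction that lies near Scd1 on chromosome 19, was lower in VD-Mac. Its levels were 111 CPM (107 to 116) in Co-Mac, 57.2 CPM (53.8 to 60.7) in VD-Mac and 71.1 CPM (65.6 to 76.9) in the graft, with a log2 ratio between the cultures of -0.96 (interval -1.07 to -0.86). Fads1, a desaturase gene for polyunsaturated fatty acids, was called lower at 15.0 CPM against 23.8 CPM, and the elongase gene Elovl5 was not called at 30.3 and 35.8 CPM. The elongase gene Elovl6 was at 6.27 CPM in Co-Mac and 5.16 CPM in VD-Mac. Fads2 was nearly absent, with 9 UMIs in Co-Mac, 1 in VD-Mac, and 0 in the graft. The sterol carrier gene Stard4, whose product moves cholesterol between membranes, was called lower, with 27.7 CPM in Co-Mac and 14.1 CPM in VD-Mac.

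**Figure D1:**
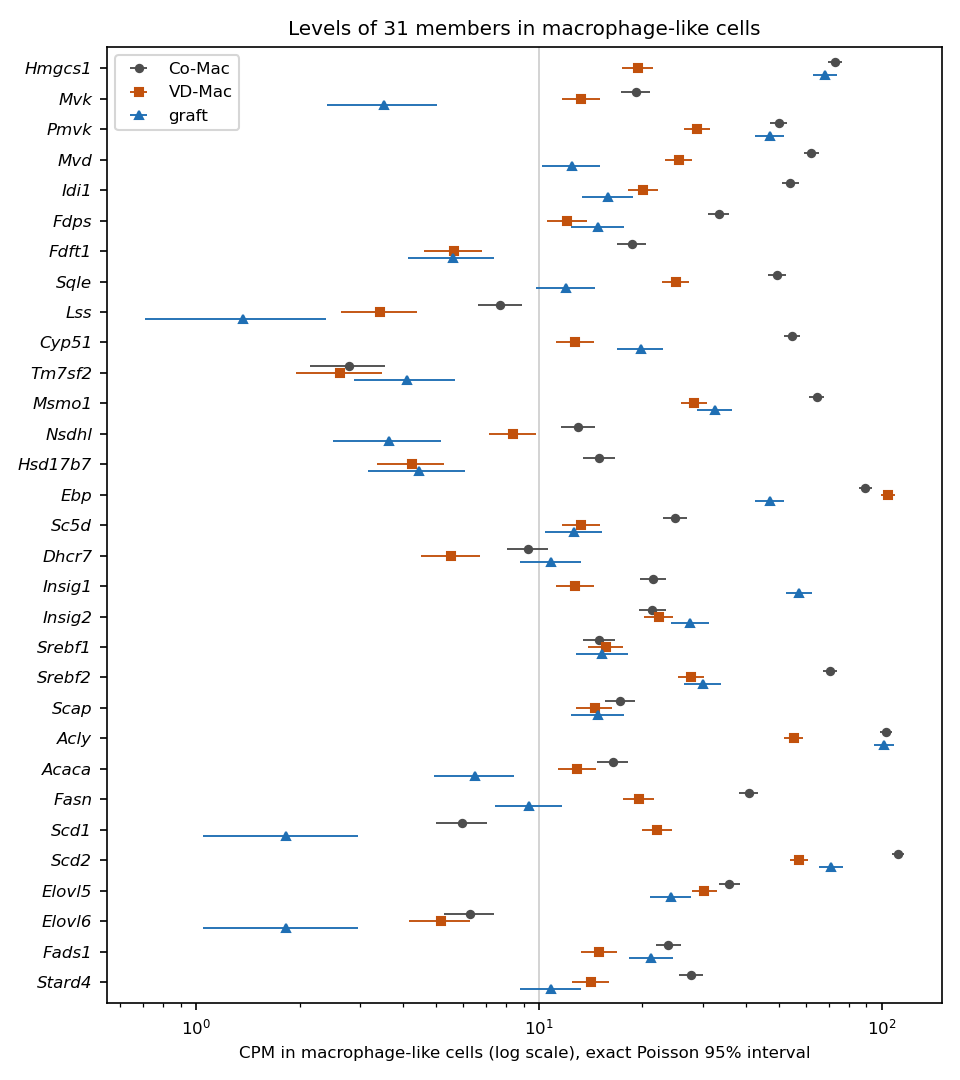
Levels of 31 members in macrophage-like cells of Co-Mac (grey circles), VD-Mac (orange squares), and the graft (blue triangles), in CPM on a log scale with exact Poisson 95% intervals and a vertical line at 10 CPM. Fads2 is left out for its low counts, and Scd1 is the 1 member called higher in VD-Mac than in Co-Mac, at 22.1 against 5.97 CPM.

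Other measures also differed between these cells. Median UMIs were 20287.5 in Co-Mac and 14967 in VD-Mac macrophage-like cells, and mitochondrial UMIs 6.17% and 6.96%. The 6 cycling markers (Mki67, Top2a, Birc5, Cdk1, Ccna2, and Ube2c) were all found, led by Birc5 in both, and summed to 68.8 CPM in Co-Mac and 112 CPM in VD-Mac. The 6 monocyte markers summed to 711 CPM in Co-Mac, led by Ccr2 at 518 CPM, and to 245 CPM in VD-Mac, led by Ly6c2 at 117 CPM. Of the 6 neutrophil markers 5 were found in both, with Retnlg at 0 and S100a8 the most abundant, and they summed to 459 CPM in Co-Mac and 1465 CPM in VD-Mac. The neutrophil precursor markers, all 6 found and led by Ngp, summed to 11.2 CPM in Co-Mac and 73.4 CPM in VD-Mac. The part of depth, mitochondrial share, cycling, and the monocyte and neutrophil marker lists in the ratios was not tested. Of cells rich in lipid synthesis, the 5 adipocyte markers (Adipoq, Plin1, Cidec, Lep, and Cfd) were all at 0 in Co-Mac, and 1 of them, Plin1, had 1 UMI in VD-Mac. The 5 sebaceous markers summed to 0.131 CPM in Co-Mac and 0.215 CPM in VD-Mac, with Awat1, Cidea, and Elovl3 at 0 in both.

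Over all kept cells, 15 of the 26 members with at least 10 CPM were called lower in VD-Mac and 1, Scd1, higher, while of 7732 genes 12.7% were called lower and 6.01% higher. The median log2 ratio was -0.64 over the 26 members as over all 32, beside -0.10 for the 7732 genes. Idi1 was at 95.1 CPM (93.4 to 96.8) in Co-Mac and 53.3 CPM (52.0 to 54.6) in VD-Mac, a log2 ratio of -0.84 (interval -0.88 to -0.79). Srebf2 was at 59.4 CPM (58.1 to 60.8) in Co-Mac and 28.4 CPM (27.4 to 29.3) in VD-Mac, a log2 ratio of -1.07 (interval -1.13 to -1.01). Acly and Scd2 were also lower. The first was at 71.6 CPM (70.2 to 73.1) in Co-Mac and 41.6 CPM (40.4 to 42.8) in VD-Mac (log2 ratio -0.79), and the second at 65.8 CPM (64.4 to 67.2) in Co-Mac and 35.4 CPM (34.3 to 36.5) in VD-Mac (log2 ratio -0.90). Scd1 was at 9.99 CPM (9.46 to 10.5) in Co-Mac and 44.9 CPM (43.7 to 46.1) in VD-Mac, 4.49-fold higher with VD3. These sums also follow the make-up of the cultures. Over the same cells the monocyte markers, all 6 found, summed to 681 CPM in Co-Mac, led by Ccr2, and to 174 CPM in VD-Mac, led by Hp. The natural killer cell markers, led by Klrk1 with Ncr1 and Gzma at 0 in both, summed to 14.3 and 4.71 CPM. Klrb1c was also at 0 in VD-Mac. The part of these markers was not tested. With each named class weighted by its mean share in the 2 cultures, 5 of 25 members and 6.84% of 7690 genes were lower, and the median was -0.29 for the members and 0.07 for the genes, where the monocyte-like class of VD-Mac rested on 14 cells. With clusters 3 and 5 and clusters 9 and 11 paired as classes, a setting added after that value was seen, 9 of 25 members and 7.17% of 7560 genes were lower, and the medians were -0.39 and 0.01. The log2 ratio of Fads1, called lower in the plain sums at -0.60, was 0.0088 under the first weighting.

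The cycling clusters were compared by number, since they took different names, in a pairing chosen after the clusters were seen. VD-Mac cluster 5 (1070 cells) had cycling markers summing to 1966 CPM and Co-Mac cluster 3 (1583 cells) to 1474 CPM. Of 28 members with at least 10 CPM, 16 were called lower in VD-Mac and 1 higher, beside 13.5% and 7.61% of 7940 genes, and the median log2 ratio was -0.65 against -0.12 for those genes. Fasn had the lowest ratio of the called members, with 60.2 CPM (58.1 to 62.4) in Co-Mac and 19.7 CPM (18.0 to 21.4) in VD-Mac, a log2 ratio of -1.61 (interval -1.75 to -1.48). Srebf2 was at 71.8 CPM (69.5 to 74.1) in Co-Mac and 33.8 CPM (31.6 to 36.1) in VD-Mac, a log2 ratio of -1.09. Idi1, Acly, and Scd2 were called lower as well. Idi1 was at 61.7 CPM in Co-Mac and 34.9 CPM in VD-Mac, Acly at 90.6 and 53.0 CPM, and Scd2 at 85.7 and 49.5 CPM, with log2 ratios of -0.82, -0.77, and -0.79. Scd1 was called higher, at 5.93 CPM (5.29 to 6.63) in Co-Mac and 20.7 CPM (19.0 to 22.4) in VD-Mac. The macrophage markers summed to 2269 CPM in cluster 5 and 1258 CPM in cluster 3, the monocyte markers to 348 and 1203 CPM, and the neutrophil markers to 14432 and 6542 CPM, so that cell type and VD3 cannot be told apart in this pair.

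VD-Mac cluster 9 (368 cells) and Co-Mac cluster 11 (236 cells), with median UMIs of 28523.5 and 28199, were also paired after they were seen. Here 12 of 25 members were called lower and 1 higher, beside 11.5% and 8.37% of 7530 genes, with a median log2 ratio of -0.54 against -0.03. Scd1 was at 28.0 CPM (24.2 to 32.2) in Co-Mac and 85.1 CPM (79.6 to 90.9) in VD-Mac, a log2 ratio of 1.61 (interval 1.38 to 1.84). Scd1 was a leading gene of cluster 9 although it had been left out of the genes used for clustering, together with Gpnmb and Atp6v0d2. Idi1 was at 75.4 CPM (69.1 to 82.2) in Co-Mac and 40.9 CPM (37.1 to 44.9) in VD-Mac, and Srebf2 at 52.3 CPM (47.1 to 58.0) in Co-Mac and 24.2 CPM (21.3 to 27.4) in VD-Mac, with log2 ratios of -0.88 and -1.11. Scd2 was called lower at 46.3 CPM against 77.4 CPM (log2 ratio -0.74), and Acly at 46.2 CPM against 69.8 CPM (log2 ratio -0.60). The mature DC markers had the highest sums of the lists in both clusters, with all 6 found and Ccl22 the most abundant, at 2437 CPM in cluster 9 and 2357 CPM in cluster 11. Other marker sums differed. The macrophage markers, 9 of 9 found and led by C1qb in both, summed to 1194 CPM in cluster 9 and 909 CPM in cluster 11. The monocyte markers, all 6 found, summed to 95.7 CPM in cluster 9, led by Ly6c2, and to 357 CPM in cluster 11, led by Ccr2. The neutrophil markers, led by S100a8, summed to 1358 CPM in cluster 9, with Retnlg at 0, and to 313 CPM in cluster 11, where all 6 were found. The neutrophil precursor markers summed to 24.9 CPM in cluster 9, all 6 found and led by Prtn3, and to 5.31 CPM in cluster 11, led by Ngp with Mpo and Camp at 0. The cycling markers, all 6 found and led by Top2a, summed to 81.5 and 56.2 CPM in that order, and mitochondrial UMIs were 7.11% and 6.05%. Cell type and VD3 cannot be told apart here either.

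In mature DC-like cells fewer members differed. There, 7 of 22 members were called lower in VD-Mac and 2 higher, beside 6.73% and 7.11% of 6652 genes, and the median log2 ratio was -0.13 over the 22 members, -0.19 over all 32, and 0.07 over those genes. The count called higher was near the background, and the count called lower was above it. Idi1 was at 176 CPM (172 to 179.8) in Co-Mac and 82.2 CPM (79.7 to 84.8) in VD-Mac, a log2 ratio of -1.10 (interval -1.15 to -1.04). The other members called lower were Hmgcs1, Fdps, Fdft1, Cyp51, Srebf2, and Stard4, with log2 ratios from -1.58 for Cyp51 to -0.68 for Fdft1. Scd1 was at 16.0 CPM (14.8 to 17.3) in Co-Mac and 66.7 CPM (64.4 to 69.0) in VD-Mac, 4.16-fold higher with VD3 (log2 ratio 2.06, interval 1.94 to 2.18). Insig2 was also called higher, at 19.9 CPM against 11.9 CPM (log2 ratio 0.74). Mvd, Mvk, Pmvk, and Elovl5 each had a log2 ratio between -0.11 and 0.01 in these cells. The class joined cluster 1, with 2617 of its 2630 Co-Mac cells, and cluster 0, with 3289 of its 3302 VD-Mac cells, so it too split almost fully by library. The mature DC markers, all 6 found and led by Ccl22, summed to 6378 CPM in Co-Mac and 4944 CPM in VD-Mac. The neutrophil markers, led by S100a8 with Retnlg at 0 in both, summed to 132 and 79.7 CPM, and the monocyte markers, all 6 found and led by Vcan, to 33.9 and 16.4 CPM. The natural killer cell markers summed to 36.5 CPM in Co-Mac and 9.77 CPM in VD-Mac. All of it came from Klrk1, with Ncr1, Klrb1c, and Gzma at 0 in both. Mitochondrial UMIs were 5.82% and 6.28%. The part of these measures was not tested.

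Neutrophil-like cells shared 1 cluster between the cultures and showed the fewest calls. Of 24 members, 2 were called lower and 0 higher, beside 5.63% and 10.1% of 7614 genes, so the members' share was near the background. The median log2 ratio was 0.02 against 0.16 for all genes. Scaling by median-of-ratios size factors would lower the log2 ratios of all genes by 0.15 in this class, raise them by 0.11 in the cycling pair, and move them by less than 0.1 in the other comparisons. With it the medians in neutrophil-like cells were -0.15 for the members and 0.0013 for all genes. Hmgcs1 was at 24.4 CPM (20.0 to 29.5) in Co-Mac and 23.8 CPM (19.0 to 29.4) in VD-Mac, with overlapping intervals, and Srebf2 at 49.3 CPM (42.9 to 56.3) in Co-Mac and 50.6 CPM (43.5 to 58.5) in VD-Mac. The members called lower were Fasn, at 24.6 CPM in Co-Mac and 12.4 CPM in VD-Mac, and Scd2, with 83 UMIs (19.1 CPM) and 16 UMIs (4.42 CPM). The Scd2 ratio turned to 0.80 when cells were limited to 5% mitochondrial UMIs. Scd1 had 0 UMIs in Co-Mac and 1 in VD-Mac neutrophil-like cells. Marker sums differed in this class too. The neutrophil markers, all 6 found and led by S100a8, summed to 24196 CPM in Co-Mac and 18312 CPM in VD-Mac. The monocyte markers, all 6 found and led by Hp, summed to 825 and 518 CPM, and the macrophage markers, all 9 found, to 775 CPM led by Cd68 and 579 CPM led by Csf1r. The cycling markers, all 6 found, came to 42.4 CPM led by Mki67 in Co-Mac and 58.6 CPM led by Ube2c in VD-Mac, and mitochondrial UMIs to 4.73% and 3.95%. Their part in the ratios was not tested, nor was whether the ratios of the classes differed from each other.

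The smallest named classes gave wide intervals. In conventional DC (cDC)-like cells of cluster 12, 79 in Co-Mac and 118 in VD-Mac, 13 of 24 members were called lower and 5 higher, beside 16.1% and 17.9% of 7370 genes. The median log2 ratio was -0.73 over those 24 members but -0.33 over the 31 with a ratio, against 0.02 for all genes. With cells limited to 5% mitochondrial UMIs it was -0.37 over 24 members, against 0.01. Fdps was at 74.0 CPM (59.0 to 91.6) in Co-Mac and 16.3 CPM (10.6 to 24.1) in VD-Mac, a log2 ratio of -2.18 (interval -2.89 to -1.52). Elovl5, which encodes an elongase of polyunsaturated fatty acids, was at 143 CPM (122 to 166) in Co-Mac and 63.3 CPM (51.4 to 77.3) in VD-Mac, a log2 ratio of -1.17 (interval -1.55 to -0.80). Pmvk, Idi1, Msmo1, and Srebf2 were also called lower with at least 50 CPM in Co-Mac, at 61.6, 51.9, 59.9, and 88.9 CPM there and 29.4, 28.1, 21.6, and 47.7 CPM in VD-Mac. The 5 called higher, a share near the background, were Sqle, Insig2, Srebf1, Acly, and Scd1, and under that limit 1 of 24 was higher, beside 20.4% of 7305 genes. Scd1 had 0 UMIs in Co-Mac and 16 in VD-Mac, at least 3.96-fold higher when 3 counts stand for the 0. In mast or basophil-like cells of cluster 14, 62 and 75 cells, 9 of 25 members were called lower and 2 higher, beside 14.9% and 19.8% of 7914 genes, with a median of -0.36 against 0.06. That median varied with the setting. It was nearer 0 at -0.02 against 0.04 as a mean over cells and at -0.11 against 0.0036 with the cultures clustered separately. It was further from 0 at -0.53 against 0.02 with cells limited to 5% mitochondrial UMIs. With totals without mitochondrial and ribosomal protein genes it was -0.47 against -0.01. Idi1 was at 55.5 CPM (39.4 to 75.8) in Co-Mac and 31.9 CPM (20.2 to 47.9) in VD-Mac, and Fdps at 61.2 CPM (44.3 to 82.4) in Co-Mac and 26.4 CPM (15.9 to 41.2) in VD-Mac. Their log2 ratios were -0.80 (interval -1.61 to -0.02) and -1.21 (interval -2.08 to -0.40). Msmo1 was called lower at a log2 ratio of -0.68, with an interval that held 0. Sqle and Cyp51, called lower at -0.66 and -0.96 on few UMIs, both turned to 0.24 with cells limited to 5% mitochondrial UMIs, Sqle to 0.040 with the cultures clustered separately, and Cyp51 to 0.35 with doublets removed.

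Markers of other cells moved in these small classes as well. In cDC-like cells the cDC markers, all 7 found and led by Itgae, summed to 626 CPM in Co-Mac and 319 CPM in VD-Mac, and the 9 macrophage markers, all found, to 235 and 437 CPM. The neutrophil markers summed to 46.7 CPM in Co-Mac, with 2 of 6 found, S100a8 the more abundant, and Retnlg, Csf3r, Cxcr2, and Mmp9 at 0. In VD-Mac they summed to 959 CPM, led by S100a8 with Retnlg at 0. The neutrophil precursor markers summed to 5.28 CPM in Co-Mac, with Mpo and Camp at 0 and Ltf the first listed. In VD-Mac that list summed to 35.3 CPM, led by Ngp with Elane, Prtn3, and Camp at 0. The endothelial markers summed to 19.4 CPM in Co-Mac and 37.2 CPM in VD-Mac, all of it from Pecam1. The mature DC markers, all 6 found, were at 438 CPM led by Ccl22 in Co-Mac and 583 CPM led by Il4i1 in VD-Mac. In mast or basophil-like cells the mast and basophil markers, all 6 found and led by Prss34, summed to 11425 CPM in Co-Mac and 9418 CPM in VD-Mac. There the cycling markers, all 6 found and led by Ube2c, were at 1325 and 722 CPM, and the monocyte markers, led by Plac8, at 1436 CPM with Vcan at 0 and 795 CPM with all 6 found. The T cell markers there, all 6 found, summed to 159 CPM in Co-Mac, led by Trbc2, and to 51.3 CPM in VD-Mac, led by Lck. The B lineage markers in this class summed to 1050 CPM in Co-Mac, led by Cd79a with Jchain at 0. In VD-Mac they summed to 1182 CPM, all 6 found and led by Jchain. In cDC-like cells the natural killer (NK) cell markers summed to 42.3 and 3.27 CPM, all of it from Klrk1, with Ncr1, Klrb1c, and Gzma at 0 in both. The part of these markers was not tested.

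**Figure D2:**
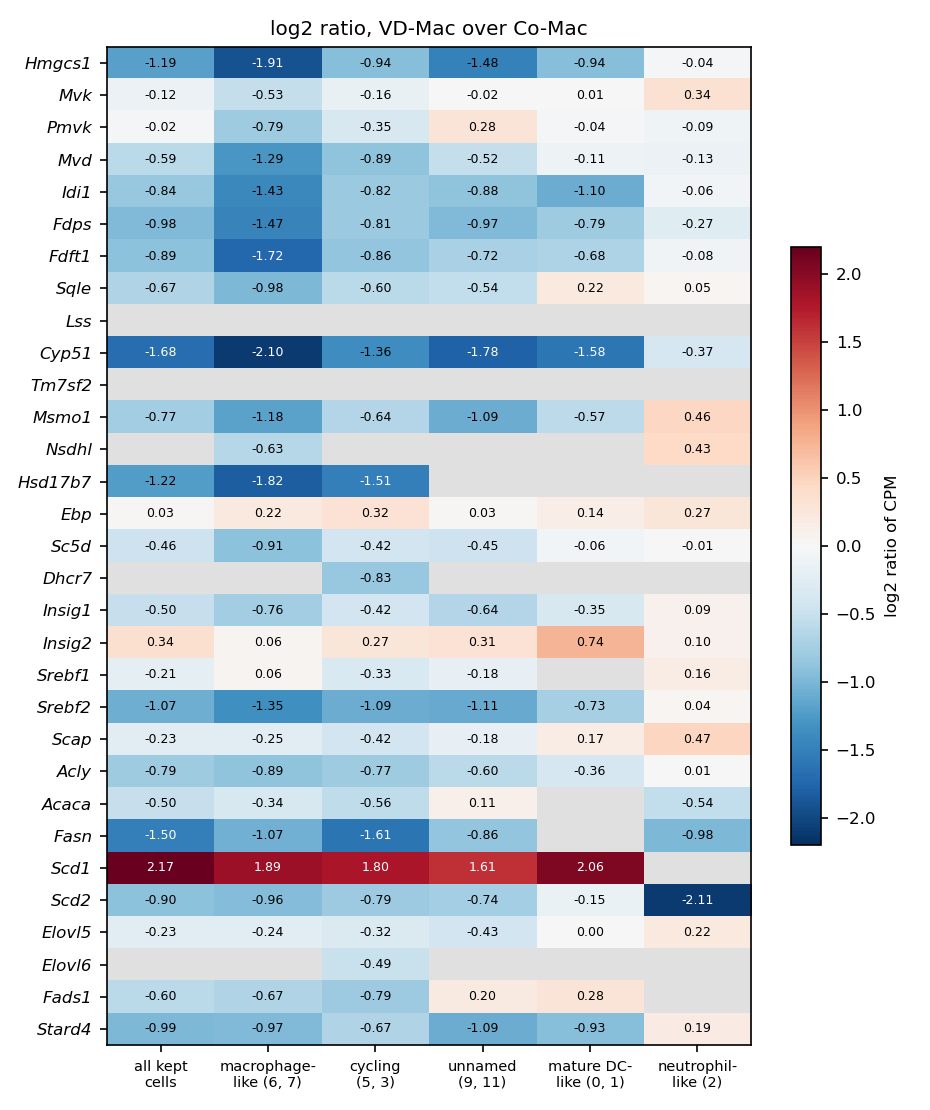
Log2 ratios of VD-Mac over Co-Mac for 31 members in all kept cells and 5 cell groups, with cluster numbers under the names, blue for lower and red for higher in VD-Mac, and grey cells for members under 10 CPM in both. Scd1 is red in 5 of the 6 columns (2.17 over all kept cells) and under 10 CPM in neutrophil-like cells, where most members lie near 0.

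Because deeper cells show more genes, each cell was also thinned to 2000 UMIs, for 3 genes chosen after their levels were seen. Neutrophil-like cells served as a class for comparison, and shares carry Clopper-Pearson 95% intervals. After thinning, Scd1 was found in 2.44% (1.88 to 3.1) of Co-Mac and 9.42% (8.44 to 10.5) of VD-Mac mature DC-like cells, whose median depths were 14487 and 13672.5 UMIs. In macrophage-like cells the shares were 1.64% (0.961 to 2.62) and 4.63% (3.47 to 6.02). Neutrophil-like cells had it in 0 of 620 and 0 of 724 thinned cells, which allows up to 0.593% and 0.508% of such cells with a UMI at that depth and sets no limit on cells that express the gene, with median depths of 2805 and 2672.5 UMIs before thinning. Hmgcs1 was found in 13.4% (11.4 to 15.7) of Co-Mac and 3.56% (2.55 to 4.81) of VD-Mac macrophage-like cells. In neutrophil-like cells its shares were 4.52% (3.02 to 6.46) and 5.39% (3.86 to 7.29). The share in VD-Mac macrophage-like cells was thus not above that in neutrophil-like cells. Idi1 was found in 9.48% (7.76 to 11.4) and 3.56% (2.55 to 4.81) of macrophage-like cells. In neutrophil-like cells its shares were 4.84% (3.29 to 6.84) and 4.56% (3.16 to 6.34). Its share in VD-Mac macrophage-like cells was likewise not above that in neutrophil-like cells. Whether neutrophil-like cells express Hmgcs1 or Idi1 themselves was not tested, so their shares do not mark a level of no expression. Summed over the members, VD-Mac neutrophil-like cells were at 686 CPM and VD-Mac macrophage-like cells at 657 CPM. In mature DC-like cells Idi1 was found in 26.5% (24.9 to 28.3) of Co-Mac and 14.8% (13.6 to 16.1) of VD-Mac cells. In the cycling pair the shares were 12.1% (10.5 to 13.8) and 6.47% (5.07 to 8.11). In clusters 11 and 9 Idi1 was found in 7.83% (4.7 to 12.1) of Co-Mac and 9.26% (6.5 to 12.7) of VD-Mac cells, so its share was not lower in VD-Mac there, the intervals overlapping, although its summed level was called lower. In that pair the shares were 11.3% (7.52 to 16.1) and 4.09% (2.31 to 6.65) for Hmgcs1 and 6.52% (3.7 to 10.5) and 10.9% (7.9 to 14.5) for Scd1, those of Scd1 with overlapping intervals. Hmgcs1 was found in 7.84% (6.84 to 8.94) of Co-Mac and 4.28% (3.62 to 5.03) of VD-Mac mature DC-like cells. In the cycling pair its shares were 8.35% (7.03 to 9.82) and 4.87% (3.66 to 6.34). In clusters 11 and 9, mature DC-like cells, and the cycling pair, the VD-Mac share of Hmgcs1 was not above that of neutrophil-like cells.

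Of 28 other genes of the pathway that are not among the members, 21 had at least 10 CPM in macrophage-like cultures, and 4 were called lower and 3 higher in VD-Mac, with a median log2 ratio of -0.06. Beside the 14.1% and 11.7% of all genes given above, both counts were near the background. Idh1, which encodes a dehydrogenase that supplies NADPH for lipid synthesis, was at 135 CPM (130.0 to 139.5) in Co-Mac and 416 CPM (407 to 426) in VD-Mac, a log2 ratio of 1.63 (interval 1.57 to 1.69). Tecr, an enzyme gene of very long chain fatty acid synthesis, was at 92.6 CPM in Co-Mac and 151 CPM in VD-Mac, and Cyb5b, an electron carrier gene, at 105 and 65.7 CPM. Slc25a1, Mid1ip1, and Tmem97 were the others called lower, and Lbr the other called higher. Over all kept cells 6 of 21 were lower, above the 12.7% of all genes, and 1, Idh1, higher, beside 6.01%. Idh1 was at 105 CPM in Co-Mac and 279 CPM in VD-Mac. Hsd17b12 and Elovl1 were among those lower there, with log2 ratios of -0.74 and -0.61.

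The same genes were counted in the other culture classes. In the cycling pair 5 of 23 were lower and 3 higher, both somewhat above the 13.5% and 7.61% of all genes, and Idh1 was at 289 CPM in VD-Mac and 77.0 CPM in Co-Mac. There Tecr and Lbr were higher, with log2 ratios of 0.62 and 0.60, and Cyb5b lower at -0.64. In clusters 9 and 11, 6 of 23 were lower and 2 higher, where 11.5% and 8.37% of all genes were, so that only the lower count was above the background, with Idh1 at 1.63 and Elovl1 at -0.81 on the log2 scale. In mature DC-like cells 1 of 14, Acat2, was lower and 1, Idh1, higher, near the 6.73% and 7.11% of all genes, and the log2 ratio of Idh1 was 0.84. In neutrophil-like cells 2 of 22 were lower and 2 higher, near the background of 5.63% and 10.1%, and Lbr, which encodes a sterol reductase of the nuclear envelope, was at 35.9 CPM in Co-Mac and 99.8 CPM in VD-Mac. In cDC-like cells 4 of 17 were called in each direction, near the 16.1% lower and 17.9% higher of all genes, with log2 ratios of 1.52 for Idh1, 0.62 for Tecr, -0.89 for Hsd17b12, and -0.71 for Cyb5r3. In mast or basophil-like cells 2 of 20, Acat2 and Hacd3, were lower and 1, Elovl1, higher, both under the 14.9% and 19.8% of all genes.

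The study set graft macrophages beside the cultured cells, and the next comparisons asked how the members stood in them. Summed over the members, the level in graft macrophage-like cells was 709 CPM (interval 692 to 727). Against Co-Mac, 17 of 27 members were called lower in the graft and 1 higher, beside 27.2% and 27.8% of 7929 genes. The median log2 ratio was -0.99 over the 27 members and -1.08 over all 32, beside -0.04. Against VD-Mac, 7 of 25 members were called lower and 6 higher, beside 28.4% and 31.1% of 8014 genes, so the members' shares were near or under the background. The median there was 0.03 against 0.04. Both comparisons share the graft cells, and the graft library differed from the cultures in tissue, cell recovery, and depth, which cannot be told apart.

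Insig1, which encodes the protein that holds SREBPs in the endoplasmic reticulum, was the member called higher in the graft than in Co-Mac. It was at 21.5 CPM (19.7 to 23.5) in Co-Mac, 12.7 CPM (11.2 to 14.5) in VD-Mac and 57.3 CPM (52.4 to 62.5) in the graft macrophage-like cells. The log2 ratio was 1.41 (interval 1.23 to 1.59) over Co-Mac and 2.17 (interval 1.94 to 2.40) over VD-Mac, and none of the 3 intervals overlapped. Hmgcs1 stood in the graft 3.52-fold above VD-Mac (log2 ratio 1.82, interval 1.62 to 2.01) but within 1.5-fold of Co-Mac (log2 ratio -0.10, interval -0.23 to 0.04). Acly had the same order, with log2 ratios of 0.88 (interval 0.75 to 1.01) over VD-Mac and -0.02 (interval -0.13 to 0.10) over Co-Mac. Pmvk, Cyp51, and Dhcr7 were also called higher than in VD-Mac, with log2 ratios of 0.70, 0.63, and 0.97.

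Several members were lower in the graft than in both cultures. Mvd had log2 ratios of -2.32 (interval -2.62 to -2.04) over Co-Mac and -1.04 over VD-Mac. Ebp was at 47.1 CPM (42.7 to 51.9) in the graft, with log2 ratios of -0.92 (interval -1.08 to -0.77) over Co-Mac and -1.14 (interval -1.30 to -0.99) over VD-Mac. Mvk, Sqle, Acaca, and Fasn were called lower against both cultures, with Fasn at 9.36 CPM in the graft. Idi1, Cyp51, Msmo1, Srebf2, and Scd2 were called lower than in Co-Mac, with log2 ratios of -1.77, -1.47, -0.99, -1.23, and -0.65. The other members called lower than in Co-Mac were Fdps, Fdft1, Nsdhl, Hsd17b7, Sc5d, and Stard4. Scd1 was at 1.83 CPM with 16 UMIs, 12.1-fold under VD-Mac (log2 ratio -3.60, interval -4.42 to -2.88), while against Co-Mac both levels were under 10 CPM.

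The graft cells carried other differences. Their macrophage markers, 9 of 9 found, summed to 11953 CPM, led by Mrc1 at 2668 CPM, beside 2279 CPM in Co-Mac and 2778 CPM in VD-Mac, both led by C1qb. The 6 fibroblast markers, all found, summed to 86.7 CPM in the graft cells, led by Col3a1 at 37.8 CPM, against 0 in Co-Mac and 0.322 CPM in VD-Mac. The neutrophil markers summed to 280 CPM in the graft cells, all 6 found and led by S100a8, beside the 459 and 1465 CPM of Co-Mac and VD-Mac. The endothelial markers, led by Pecam1, summed to 65.7 CPM in the graft cells with all 5 found, to 0.784 CPM in Co-Mac with Cldn5 at 0, and to 6.02 CPM in VD-Mac with Emcn and Cldn5 at 0. The monocyte markers, all 6 found and led by F13a1, summed to 495 CPM in the graft cells, beside the 711 and 245 CPM given above. The mature DC markers summed to 18.4 CPM there, led by Il4i1 with Tmem150c at 0, and to 96.2 CPM in Co-Mac, led by Ccl22, and 123 CPM in VD-Mac, led by Il4i1, with all 6 found in both. Cycling markers summed to 34.9 CPM, mitochondrial UMIs were 3.74%, and median UMIs were 14512. Their part in the result was not tested. Adipocyte markers summed to 0.456 CPM, led by Cfd at 0.342 CPM, with Plin1, Cidec, and Lep at 0, and sebaceous markers to 0.57 CPM, with Elovl3 alone found.

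Among the 28 other pathway genes, 9 of 23 were called lower and 4 higher in the graft than in Co-Mac, and 8 of 24 lower and 6 higher than in VD-Mac. Of all genes 27.2% were lower and 27.8% higher than in Co-Mac, and 28.4% and 31.1% than in VD-Mac, so the counts against VD-Mac were near or under the background and against Co-Mac the count of lower genes was above it and that of higher genes under it. Mylip, which encodes a ubiquitin ligase that acts on lipoprotein receptors, was at 146 CPM (138 to 154) in the graft, 7.53 CPM in Co-Mac, and 5.32 CPM in VD-Mac. Por, the reductase gene that feeds electrons to Cyp51 and Sqle proteins, was at 144 CPM (136 to 153) in the graft, 28.3 CPM in Co-Mac, and 27.2 CPM in VD-Mac. Erg28, a scaffold gene of sterol enzymes, was lower in the graft, at 15.4 CPM against 59.2 and 61.1 CPM. Cyb5b was lower than in Co-Mac (log2 ratio -1.18), and Idh1 lower than in VD-Mac (log2 ratio -2.63).

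The 2 graft macrophage-like clusters differed in these genes. Summed over the members, cluster 4 (Cd163, Lyve1) was at 971 CPM (interval 930 to 1013) and cluster 2 (Gpnmb, Mmp12) at 620 CPM (601 to 639), the clusters being chosen by other genes. Acly was at 155 CPM (139 to 172) in cluster 4 and 82.9 CPM (76.1 to 90.2) in cluster 2. Fads1 was at 47.1 CPM (38.5 to 57.0) and 12.4 CPM (9.84 to 15.4), and Idi1 at 36.8 CPM (29.3 to 45.7) and 8.72 CPM (6.61 to 11.3), in the same order. Scd2 had the opposite order, with 55.6 CPM (46.3 to 66.3) in cluster 4 and 76.3 CPM (69.8 to 83.3) in cluster 2. In cluster 4 alone 4 of 26 members were higher than in Co-Mac, under the 34.1% of 8104 genes, and 14 were lower, above the 26.5%, with a median log2 ratio of -0.61 against 0.12 for the genes. Over VD-Mac 11 of 24 members were higher, near the 37.6% of 8157 genes, and 5 lower, near the 27.2%. In cluster 2 alone 18 of 27 members were lower than in Co-Mac and 1 higher, beside 29.2% and 25.1% of 7850 genes, with a median of -1.33 against -0.10 for the genes. Over VD-Mac 9 of 25 were lower and 4 higher there, beside 30.1% and 28.7% of 7935 genes. These settings were added after the clusters were seen. Other measures also differed. Median UMIs were 11690.5 in cluster 4 and 16369 in cluster 2. The macrophage markers, 9 of 9 found, summed to 18432 CPM in cluster 4, led by Mrc1, and to 9743 CPM in cluster 2, led by C1qa. The monocyte markers, 6 of 6 found and led by F13a1, summed to 843 and 376 CPM, and the cycling markers, 6 of 6 found and led by Mki67, to 72.2 and 22.2 CPM. The cDC markers summed to 136 CPM in cluster 4, with 4 of 7 found, Cd209a the most abundant, and Flt3, Xcr1, and Clec9a at 0, and to 12.4 CPM in cluster 2, with 5 of 7 found, Cadm1 the most abundant, and Xcr1 and Itgae at 0. The fibroblast markers, 6 of 6 found and led by Col3a1, summed to 136 and 69.9 CPM. The endothelial markers, led by Pecam1, summed to 141 CPM in cluster 4, with 3 of 5 found and Emcn and Cldn5 at 0, and to 39.9 CPM in cluster 2, with 5 of 5 found. The part of these measures in the result was not tested.

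Across the 8 graft clusters of at least 50 cells, the highest level lay in cluster 4 for 8 members and in T cell-like cluster 3 for 7. Cluster 5, T cell-like cluster 7, and fibroblast-like cluster 6 each led for 5 members, and cluster 2 and neutrophil-like cluster 0 for 1 each. The leading cluster's interval lay above the second level's interval for 12 of the 32 members, and for the other 20 the first and second place were not told apart at this depth. The naming rule gave cluster 5 the name mature DC, with 6 of 6 markers found. Cluster 5 is called by its number here, since its leading genes joined Igkc and Ighm with the DC genes Ccr7, Flt3, and Fscn1. Its cycling markers had a mean log2 ratio of 3.1 over the other graft cells, with 5 CPM added to each level. That was the highest of the graft clusters, with fibroblast-like cluster 6 next at -0.17. The part of cycling in the levels of cluster 5 was not tested.

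Cholesterol genes were spread over several clusters. Hmgcs1 was at 95.1 CPM (82.7 to 109) in cluster 4 and 82.4 CPM (73.7 to 91.9) in monocyte-like cluster 1, whose intervals overlapped, and at 7.85 CPM in neutrophil-like cells. Insig1 was highest in cluster 4, at 74.5 CPM (63.6 to 86.7), and next in cluster 1, at 52.7 CPM (45.7 to 60.3). Idi1 was highest in cluster 5, at 61.3 CPM (51.4 to 72.5), followed by cluster 4. Pmvk was also highest in cluster 5, at 117 CPM (103 to 132), and lowest in cluster 7, at 5.61 CPM (1.53 to 14.4). Srebf2 was highest in cluster 5 as well, at 72.6 CPM (61.8 to 84.7), with T cell-like cluster 3 next at 45.1 CPM. Hsd17b7 was highest in fibroblast-like cells, at 36.4 CPM (30.5 to 43.1), and at 2.60 CPM in cluster 2. Sc5d was highest in neutrophil-like cells, at 68.9 CPM (54.6 to 85.9), with T cell-like cluster 3 next at 26.4 CPM (17.9 to 37.4), although most other members were lowest in the neutrophil-like cells. Mvd was highest in cluster 4, at 19.3 CPM (14.0 to 26.0).

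Fatty acid genes had other orders. Elovl5 was highest in T cell-like cluster 3, at 282 CPM (252 to 314), and in T cell-like cluster 7, at 174 CPM (145 to 207), and at 23.4 CPM in cluster 2. Elovl6, the elongase gene for palmitate, was also highest in cluster 3, at 45.1 CPM (33.8 to 59.0), with fibroblast-like cells next at 17.0 CPM. Scd1 was highest in cluster 5, at 64.4 CPM (54.3 to 75.9), next in fibroblast-like cells at 24.6 CPM (19.8 to 30.3), and under 3 CPM in the other 6 clusters. Scd2 was highest in fibroblast-like cells, at 96.6 CPM (86.8 to 107), with cluster 5 next at 83.8 CPM (72.2 to 96.8) and intervals that overlapped. Fasn was at 51.0 CPM (39.0 to 65.7) and 44.9 CPM (30.7 to 63.4) in the T cell-like clusters 3 and 7, and at 6.73 CPM in cluster 2. Acly was highest in cluster 4, and cluster 1 came next at 87.5 CPM (78.5 to 97.3).

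**Figure D3:**
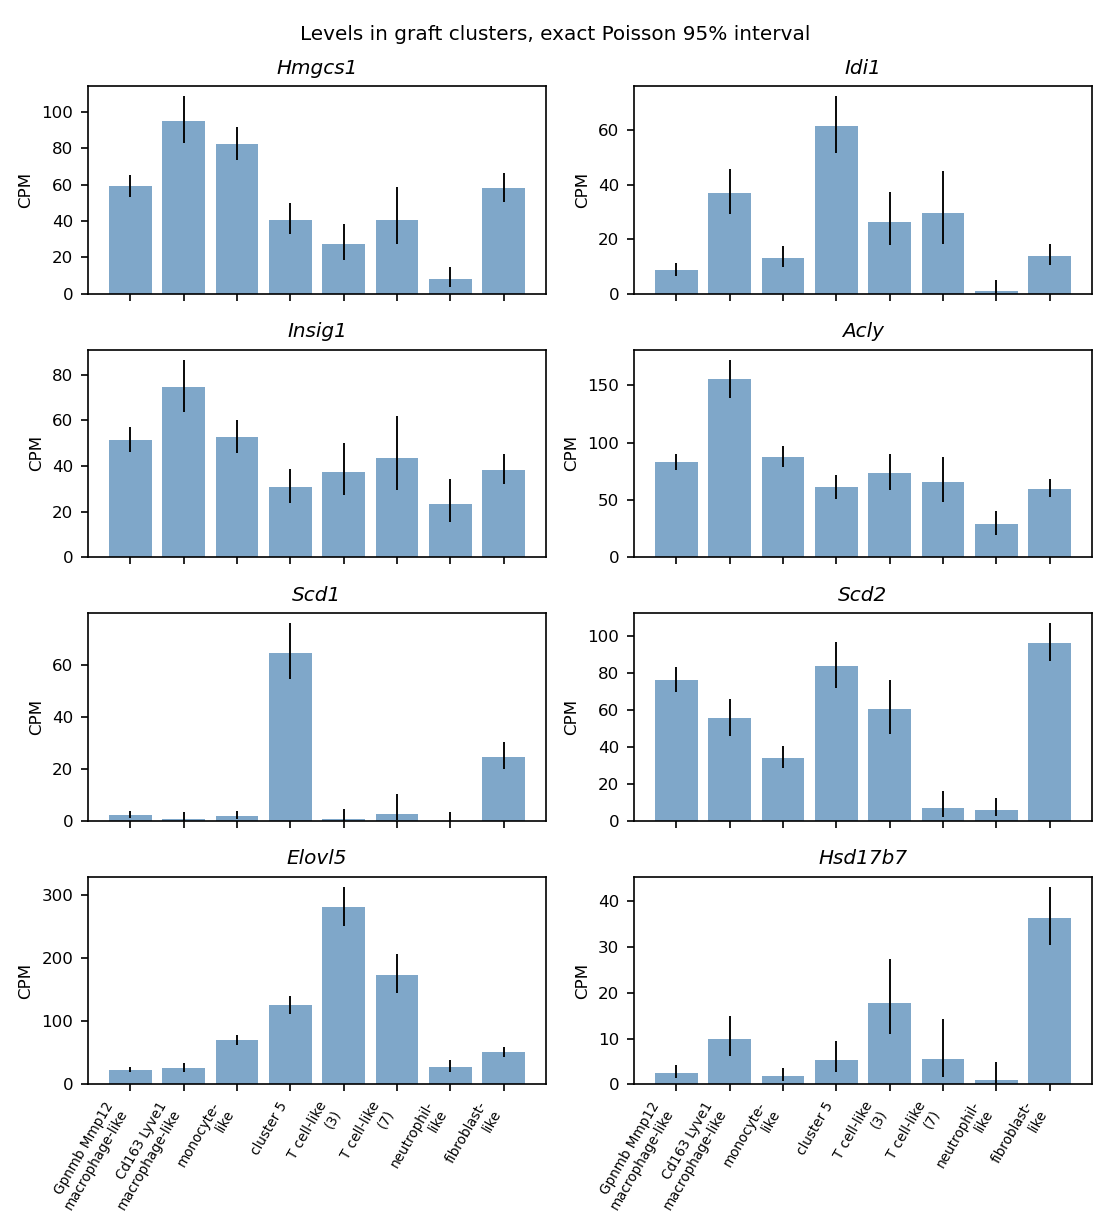
Levels of 8 members in the graft clusters of at least 50 cells, as bars in CPM from 0 with exact Poisson 95% intervals, each panel with its own axis. The genes were chosen after their values were seen, and Acly and Insig1 are highest in the Cd163 Lyve1 cluster, Elovl5 in T cell-like cluster 3, and Scd1 in cluster 5.

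Since many members were lower together in VD-Mac, their promoters were read from RefSeq sequences of GRCm38.p6 that span 250 bases before to 50 after the start in the RefSeq table. For Hmgcs1, Idi1, and Cyp51 those starts differ from the GENCODE gene starts given at the outset. Of the 32 members 25 had an entry, and Fdps, Fdft1, Sqle, Scd1, Scd2, Fads1, and Stard4 had none. The letters CCAAT were searched on both strands and were found for 21 of 25 members (84.0%), and for 41.1% of 27025 genes and 37.4% of 32851 promoters. The share of genes is over all genes with an entry, whether or not they were expressed in these cells. The members without it were Scap, Acaca, Elovl6, and Fads2, none of them called lower in macrophage-like cells. Of the members with it, Mvk, Ebp, Insig2, and Srebf1, among others, were also not called lower there. Whether the letters go with lower levels was not tested. The letters TCACNCCAC, a form of the sterol regulatory element that SREBPs bind, were searched in the same way and found for 1 of 25 members (4.0%), Hmgcs1, and for 1.44% of genes and 1.24% of promoters. A match is a description of the letters in this window alone. The promoters of Hmgcs1, Idi1, and Cyp51 are shown because these genes had low ratios at 3 places of the route, a choice made after their values were seen. They lie at chr13:119690101-119690400 (plus strand), chr13:8885356-8885655 (plus strand), and chr5:4104648-4104947 (minus strand) of GRCm38.p6, and are written 5′ to 3′ with CCAAT, its reverse complement, and TCACNCCAC in capitals.
Hmgcs1: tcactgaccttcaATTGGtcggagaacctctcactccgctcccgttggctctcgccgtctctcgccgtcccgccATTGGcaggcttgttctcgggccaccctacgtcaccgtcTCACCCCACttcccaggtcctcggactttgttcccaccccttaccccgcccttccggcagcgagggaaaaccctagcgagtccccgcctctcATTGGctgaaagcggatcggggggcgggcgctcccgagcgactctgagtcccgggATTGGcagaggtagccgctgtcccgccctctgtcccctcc
Idi1: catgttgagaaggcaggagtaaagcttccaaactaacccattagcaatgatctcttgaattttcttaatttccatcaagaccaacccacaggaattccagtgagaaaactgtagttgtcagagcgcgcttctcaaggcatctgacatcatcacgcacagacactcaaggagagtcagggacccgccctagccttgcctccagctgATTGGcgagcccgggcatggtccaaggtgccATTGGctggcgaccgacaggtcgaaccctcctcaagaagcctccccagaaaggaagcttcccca
Cyp51: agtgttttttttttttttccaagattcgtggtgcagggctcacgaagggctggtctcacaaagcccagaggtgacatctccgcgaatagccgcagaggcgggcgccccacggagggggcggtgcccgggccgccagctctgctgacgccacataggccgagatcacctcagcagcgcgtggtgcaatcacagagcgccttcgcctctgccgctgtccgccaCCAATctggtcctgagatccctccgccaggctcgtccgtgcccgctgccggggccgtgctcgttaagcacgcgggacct
The Hmgcs1 window held 4 CCAAT matches and 1 TCACNCCAC match, with no overlap between them, the Idi1 window 2 CCAAT matches, and the Cyp51 window 1.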

How the data were processed

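The deposited files hold gene-by-barcode counts, UMI counts that the authors made with Cell Ranger (version 3.1.0 per the file headers), for 3 libraries of 1 sample group each. The authors' processing notes name the mouse build mm9 and the paper's methods a human build, while the identifiers are mouse Ensembl genes, of which 99.6% were found in GENCODE vM21 (GRCm38), the annotation used for positions. Hashtag counts were left out, since the labels do not tie a hashtag to a mouse. Members and lists were chosen with earlier results of these data known.

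Kept barcodes had 300 or more genes, a total under 100000, and a mitochondrial share under 10%. Automatic Scrublet calls (scanpy 1.11.5) were 1 cell of Co-Mac, 0 of VD-Mac, and 6 of hSTSG. Doublets were kept, and an alternative removed 457, 691, and 45 cells. Both cultures together and the graft alone were clustered with Seurat 5.3.0 in R 4.3.3 (10000 UMIs per cell and log scale, 2000 variable genes without members and pathway genes, 15 principal components, 15 neighbors, resolution 0.5). Clusters were named from marker lists. Names of clusters rest on the later of 2 rules, written once the clusters and their leading genes were known. The earlier rule named graft cluster 1 erythroid, graft cluster 5 B lineage, culture cluster 5 neutrophil precursor, and culture cluster 13 and graft cluster 8 neutrophil. Macrophage-like clusters were the same by both rules. UMIs were summed over the cells of a class with Python 3.11.15, numpy 2.4.6, scipy 1.17.1, and pandas 2.3.3, and plotted with matplotlib 3.10.9. Intervals are 95% exact Poisson for levels, exact conditional binomial for ratios, and Clopper-Pearson for shares, and 3 counts stand for 0. The calculation of ratios, intervals, and calls was tested on simulated Poisson counts with the totals of macrophage-like classes. Clustering, naming, thinning, and class weights were not simulated.

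Every member is named at least once. In each comparison values were given for called members with at least 50 CPM in the higher group, and of other pathway genes for at most 4 called with that level. Scd1 in all kept cells, genes of the smaller lists, thinned genes, promoters, and graft genes in detail were chosen after their values were seen, as were the pairs of numbered clusters and the cDC-like and mast or basophil-like comparisons. Alternatives changed the cell filters, doublets, scaling, fold, minimum level, clustering, naming, and class weights.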

Additional observations from a re-analysis of the deposited data

How the results depend on the processing

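Alternatives to the cell filters, doublet handling, scaling, call rule, clustering, naming rule, and class make-up gave 303 counts and medians that counted as kept and 51 that moved. A count was kept within 1.5 times of the reported one, and a median between the medians of the members' interval limits, which are wide in small classes. Of values of single genes, 2707 stayed within their interval, 351 moved, and 6 called ones changed sign. The cause was not tested, apart from a higher fold or level, which calls fewer genes by construction. The alternatives for numbered clusters and for mature DC-like, neutrophil-like, cDC-like, and mast or basophil-like cells were chosen after seeing the data, as were the first naming rule, leaving out low-depth clusters, adding or singling out clusters, and the paired class weights. Percentages in brackets below are the share of all genes called in the same setting and direction.

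With calls at 2-fold, members lower in VD-Mac were 5 of 26 over all kept cells (4.63%), 10 of 27 in macrophage-like cells (6.16%), 4 of 28 in the cycling pair (4.84%), 5 of 25 in clusters 9 and 11 (4.53%), 2 of 22 in mature DC-like cells (2.41%), 1 of 24 in neutrophil-like cells (2.39%), and 3 of 25 in mast or basophil-like cells (6.81%). Members higher were 1 of 22 in mature DC-like (2.29%) and 2 of 24 in cDC-like cells (9.04%), and in the graft 2 of 25 were higher than in VD-Mac (20.8%). A minimum of 50 CPM left few members to call. Of these, lower in VD-Mac were 4 of 6 over all kept cells (13.4%), 8 of 9 in macrophage-like cells (16.8%), 5 of 7 in the cycling pair (14.3%), 4 of 7 in clusters 9 and 11 (12.7%), 1 of 3 in mature DC-like (7.91%), 0 of 4 in neutrophil-like (4.03%), 6 of 7 in cDC-like (14.8%), and 3 of 4 in mast or basophil-like cells (9.79%). Higher were 0 over all kept cells (7.32%) and in macrophage-like (13.2%), cycling (8.85%), cDC-like (15.2%), and mast or basophil-like cells (11.1%), and 1 of 3 in mature DC-like cells (6.74%). In the graft 7 of 10 were lower than in Co-Mac (26.9%), and 3 of 5 higher (37.9%) and 1 lower (26.9%) than in VD-Mac. With no minimum level, 4 of 30 were lower in neutrophil-like (11.7%) and 14 of 31 in mast or basophil-like cells (18.5%).

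Over all kept cells the median log2 ratio of the members was -0.51 with median-of-ratios size factors, -0.51 with totals without mitochondrial and ribosomal protein genes, and -0.56 as a mean over cells. Classes weighted by their mean share gave 5 of 25 members lower (6.84%), a median of -0.29, and a Fads1 ratio of 0.0088, and with the pairs as classes 9 of 25 lower (7.17%) and a median of -0.39. In macrophage-like cells the median was -0.74 with totals without mitochondrial and ribosomal protein genes and -0.75 with cycling clusters 3 and 5 added. In the cycling pair it was -0.53 with median-of-ratios size factors. The median of all genes lay between -0.11 and 0.13 in these settings.

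With cells limited to 5% mitochondrial UMIs, 3 of 23 members were higher (7.89%) and 1 lower (6.29%) in neutrophil-like cells, where the Scd2 ratio was 0.80. In cDC-like cells 1 of 24 was higher (20.4%), and the median was -0.37. In mast or basophil-like cells the ratios of Sqle and Cyp51 were then both 0.24. Sqle was at 0.040 there with the cultures clustered separately, where the median was -0.11, and Cyp51 at 0.35 with doublets removed. In the same cells 7 of 24 members were higher as a mean over cells, near the 23.0% of all genes, with a median of -0.02, and 14 of 29 lower with totals without mitochondrial and ribosomal protein genes (18.7%). In neutrophil-like cells 2 of 24 were higher at resolution 0.8 (7.74%) and 1 of 23 with 30 principal components (7.3%).

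Against Co-Mac, 2 of 27 members were higher in the graft with the limit of 5% (25.8%), and 4 of 26 with graft cluster 4 alone (34.1%), where the median was -0.61. With graft cluster 2 alone it was -1.33. The medians of all genes were 0.12 and -0.10. Against VD-Mac, 11 of 24 were higher with graft cluster 4 alone (37.6%). Under 5% mitochondrial UMIs no VD-Mac cluster was named macrophage-like, so VD-Mac over Co-Mac and the graft over VD-Mac had no value, and cDC-like cells had none with the cultures clustered separately. The call rule left out members under 10 CPM in both groups.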
